A study of Mus musculus with 32 samples.

Results

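The comparison described here sets the day 18 response of BALB/c mesentery to pristane against that of DBA mesentery. It rests on 13 of the 32 arrays of the study: 4 from BALB/c mice given pristane, 3 from untreated BALB/c mice, 3 from DBA mice given pristane and 3 from untreated DBA mice. The arrays were taken by strain, treatment and time as labelled, and 1 further BALB/c control array was left out because pancreatic genes dominated it. Treated mice had 0.5 ml of pristane (TMPD) in the peritoneal cavity, and their mesentery was taken after 18 days. Controls had no injection, so the injection itself and the oil were not separated. The labels give no age, sex or substrain, and they do not say that each array holds 1 animal, so the p-values measure the spread between these arrays, which may be partly technical. The BALB/c and DBA arrays also carry different title codes, so a strain difference in response and a difference between the 2 coded sets cannot be told apart.

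Pristane is a mineral oil hydrocarbon that cells cannot break down. It sets up a lasting inflammation of the peritoneum in which neutrophils and monocytes enter, macrophages take up the oil, and granulomas form on the mesentery. Type I interferon and interleukin 6 are made in this tissue, and BALB/c mice go on to develop plasmacytomas there, whereas DBA mice are known to resist them. The comparison asks which genes answered the oil to a different extent in the 2 strains. For each gene the quantity is a difference of differences on the log2 scale, the BALB/c response (treated minus control) minus the DBA response, so a positive value means that the BALB/c response lay above that of DBA.

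Each signal is the intensity of 1 probe set, and a gene is represented by its brightest probe set. Array medians ran from 98.1 to 122.8, and the signal of the actin control probe sets at the 3′ end over the 5′ end averaged 1.18 ± 0.045 on treated and 1.31 ± 0.02 on control BALB/c arrays, and 1.19 ± 0.0361 on treated and 1.29 ± 0.0493 on control DBA arrays (SD, n = 4, 3, 3 and 3). Some BALB/c arrays held pancreatic RNA. The mean log2 signal of 14 acinar cell markers was 6.67, 12.25, 11.26 and 13.8 on the treated BALB/c arrays and 6.97, 10.26 and 10.5 on their controls, against 5.99 to 6.28 on treated and 6.28 to 6.6 on control DBA arrays. The control left out stood at 16.81. Intestinal epithelial markers were high on treated BALB/c replicates 2 and 3 (9.53 and 8.69) and on DBA control replicate 1 (8.28), and lay between 5.75 and 6.92 on the other arrays used. Both strains' arrays carried the defining genes of mesenteric tissue, with the adipocyte list at 10.51 or above and the mesothelial list at 10.57 or above on each of the 13 arrays. The signal of Xist, an RNA of female cells, was 12300 or more on 2 of 4 treated BALB/c arrays and on 1 of 3 arrays in each other group. It was 120 or less on the rest.

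**Figure D1:**
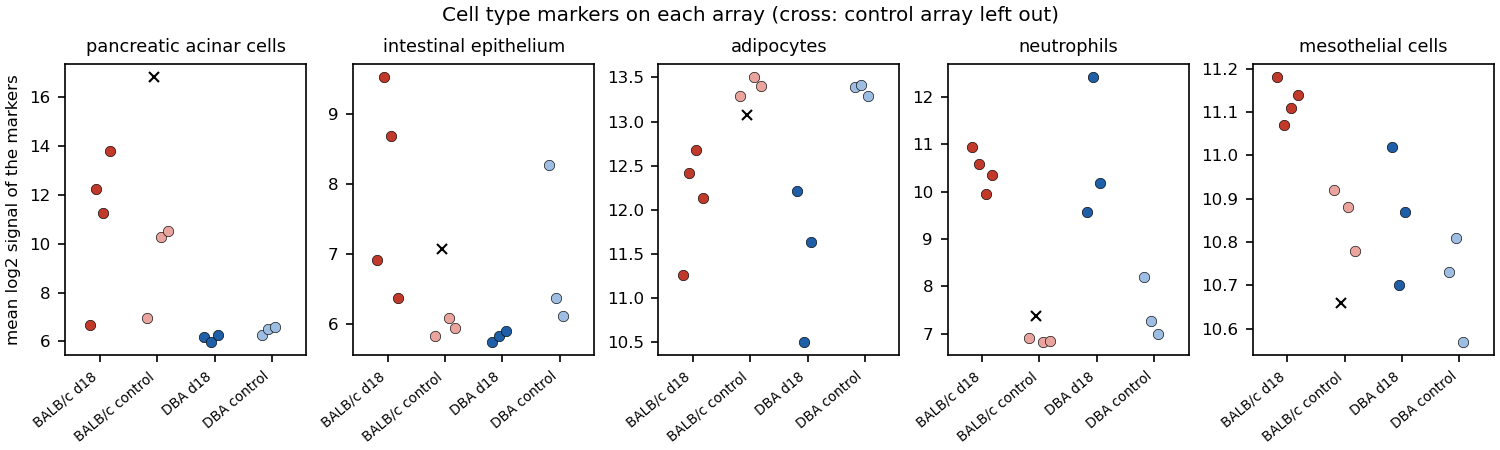
Mean log2 signal of 5 lists of cell type markers on each array of the day 18 sets, with treated BALB/c, control BALB/c, treated DBA and control DBA arrays from left to right. Points are single arrays, and the cross is the BALB/c control left out, at 16.81 for acinar markers. Acinar markers were above 9 on 3 treated and 2 control BALB/c arrays and below 7 on each DBA array.

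The responses of the 2 strains were largely alike in direction. Of 12592 genes tested, 2767 rose (22%) and 3027 fell (24%) in BALB/c, 46% in all, and 3242 rose (25.7%) and 3654 fell (29%) in DBA, 54.8% in all. A gene is called, here and below, at an adjusted p under 0.05 in limma. In both strains 2287 genes rose and 2460 fell, which is 81.9% of the BALB/c calls and 68.8% of the DBA calls, and 20 genes were called with opposite signs. Across genes the responses had a Pearson correlation of 0.871 and a Spearman correlation of 0.824, a description over genes that share arrays within each strain.

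The test of the difference itself called 32 genes, or 0.254% of those tested, with 11 (0.0874%) positive and 21 (0.167%) negative. At an unadjusted p under 0.05 there were 2067 genes, 16.4% of those tested. The median difference over all genes was 0.02 and the median SE was 0.21. Beyond 1 log2 unit in either direction lay 432 genes (3.43%), most of them not called. Among the 32 genes, 17 were called in the DBA response and not in the BALB/c response (2129 of all 12592 genes tested). Another 3 were called in BALB/c and not in DBA (1027), 6 in both with the same sign (4747) and 6 in both with opposite signs (20). The responses that define these classes also make up the difference that chose the genes, so the counts only describe them.

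The number of calls depended on single arrays. It was 3 without DBA day 18 replicate 3 and 234 without DBA day 18 replicate 1. It was 10, 21 and 11 without BALB/c day 18 replicates 2, 3 and 4, 5 and 13 without BALB/c control replicates 3 and 4, and 18, 12 and 10 without DBA control replicates 1, 2 and 3. Without the 5 BALB/c arrays high in acinar markers, which leaves 1 treated and 1 control BALB/c array whose spread is assumed to be that of the DBA arrays, 0 genes were called and 989 had an unadjusted p under 0.05. In that fit 31 of the 32 genes could be tested and all 31 kept their sign, with 1 of them (Per2, −0.46) more than 1.5 times away from its value on 13 arrays. Without the 3 arrays high in intestinal markers 3 genes were called, and all 32 kept their sign and stayed within 1.5 times of their value. With the Xist level as a covariate 32 genes were called, of which 30 were among the 32 of the main fit.

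**Figure D2:**
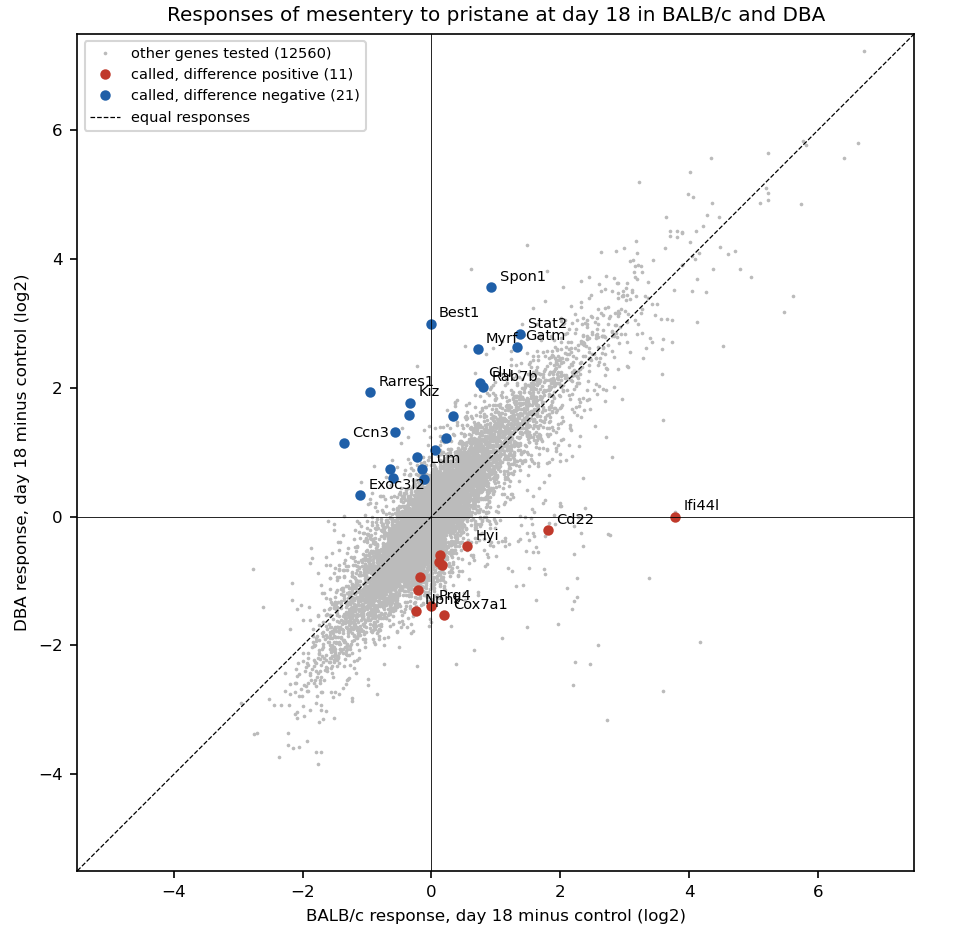
BALB/c response (horizontal) against DBA response (vertical) for each gene tested, both as treated minus control on the log2 scale. Grey points are the genes whose difference was not called, red points the 11 with a positive difference, blue points the 21 with a negative one, and the dashed line marks equal responses. Of the 21 negative genes 20 rose in DBA (25.7% of all genes), and of the 11 positive genes 9 fell in DBA (29%).

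Among the 11 genes with a positive difference, Ifi44l, an interferon-induced gene, stood furthest out. Its signal was 3453, 2492, 1601 and 2523 on treated and 135.9, 175 and 150 on control BALB/c arrays, against 1.8, 22.1 and 7.2 on treated and 7.9, 4.3 and 17.3 on control DBA arrays. All DBA signals lay under 24.9, the 25th percentile of all values, so the DBA term rests on signals at the dim end of the scale, while every treated BALB/c array lay far above every control. The response was 3.79 ± 0.25 in BALB/c and 0.00 ± 0.27 in DBA (SE), and the difference was 3.79 ± 0.37 (95% interval 2.99 to 4.58, adjusted p = 0.0009). The other kept probe set of Ifi44l gave 3.94 ± 0.34. Ifi44l was above 103.7, the level needed on at least 3 arrays for testing, on every BALB/c array and on no DBA array. It entered the test only through the strain where it is high, so its p is not read as support.

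Cd22, an inhibitory receptor of B cells that binds sialic acid, rose in BALB/c and was not called in DBA. Its signal was 1874, 1119, 2090 and 1649 on treated and 634.4, 327 and 433.4 on control BALB/c arrays, against 492.4, 311.3 and 461.1 on treated and 465.6, 486.7 and 494.8 on control DBA arrays. The treated BALB/c arrays stood above all others, and the DBA groups overlapped. The difference was 2.02 ± 0.34 (adjusted p = 0.031), and a second probe set gave 2.34 ± 0.47. Of the 13 B cell markers tested, Cd22 was the 1 whose difference was called, and the median difference of the list was 0.32, against 0.02 over all genes. With the acinar marker level as a covariate the list median was 0.40. Without the 5 BALB/c arrays high in acinar markers, which leaves 1 treated and 1 control BALB/c array, it was −0.43.

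Hyi, which encodes hydroxypyruvate isomerase, was the 1 gene called positive that rose in BALB/c and fell in DBA. The treated BALB/c arrays read 567.7, 491, 581.4 and 558.2 and their controls 341.8, 351.5 and 405.4, while treated DBA arrays read 232.9, 221.8 and 221.2 and DBA controls 325, 365.7 and 275.8. In neither strain did treated and control arrays overlap, and the difference was 1.02 ± 0.16 (adjusted p = 0.024).

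The other 8 genes with a positive difference fell in DBA and were not called in BALB/c. Prg4, the secreted lubricant lubricin, kept 2498, 2243, 2681 and 2494 on treated BALB/c arrays beside 2290, 2269 and 2947 on controls, but had 1100, 736.8 and 598.5 on treated DBA arrays beside 2193, 2272 and 1844 on controls. Its difference was 1.38 ± 0.25 (adjusted p = 0.043). Treated DBA arrays were thus the low group, and the remaining 3 groups overlapped.

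Cox7a1, the isoform of a cytochrome c oxidase subunit found in muscle and brown fat, had 257.2, 304.3, 223.1 and 192.3 on treated and 203.8, 190.5 and 229 on control BALB/c arrays, against 153.2, 112.1 and 80.8 on treated and 358.4, 381.4 and 374.3 on control DBA arrays. The BALB/c groups overlapped and the DBA groups did not, with a difference of 1.73 ± 0.26 (adjusted p = 0.024). Npnt, the matrix protein nephronectin, had 578.5, 673.7, 626.9 and 669.2 on treated and 787.5, 694.2 and 796.9 on control BALB/c arrays, against 407.8, 315 and 339.4 on treated and 970.6, 875.6 and 1214 on control DBA arrays. Treated arrays of Npnt lay below controls in both strains, further in DBA, and the difference was 1.21 ± 0.18 (adjusted p = 0.024). The 3 other probe sets of Npnt gave 0.57 to 0.74, each with an adjusted p of 0.26 or above.

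Smaller positive differences were found for Adgrl2, an adhesion receptor of the latrophilin family (0.92 ± 0.15), Fam220a (0.92 ± 0.16), the Wnt receptor Fzd5 (0.82 ± 0.13), the lysosomal membrane protein gene Laptm4b (0.76 ± 0.13) and the WD-repeat protein gene Wdr6 (0.73 ± 0.13). Their DBA responses ran from −1.14 for Adgrl2 to −0.60 for Wdr6, and their BALB/c responses from −0.21 to 0.16. Other probe sets gave 0.59 ± 0.18 for Adgrl2, 1.01 ± 0.22 for Fam220a, 0.74 and 0.80 for Laptm4b and 0.39 ± 0.17 for Wdr6, none of them called.

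Of the 21 genes with a negative difference, 20 rose in DBA (25.7% of all genes). In BALB/c 6 of the 21 rose (22%), 6 fell (24%) and 9 were not called. The difference of responses uses the same arrays as a comparison of the strains at either state, so these are set side by side only. Among the 21 genes, treated BALB/c arrays were called lower than treated DBA arrays in 14 (7.5% of all genes) and higher in 2 (12%), and BALB/c controls were called higher than DBA controls in 12 (9.27%) and lower in 0 (6.49%). Rarres1, a membrane protein gene named for its induction by retinoids, was the gene with the lowest p. It had 1458, 1512, 1883 and 1611 on treated and 2342, 3707 and 3515 on control BALB/c arrays, against 169.5, 229 and 216.8 on treated and 31.6, 39.9 and 32.4 on control DBA arrays. It fell in BALB/c, where all signals were high, and rose in DBA, where all were low, and treated and control arrays did not overlap in either strain. The responses were −0.95 ± 0.16 in BALB/c and 1.94 ± 0.17 in DBA, and the difference was −2.89 ± 0.23 (95% interval −3.39 to −2.39, adjusted p = 0.00019).

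Ccn3, a matricellular protein of the CCN family, also fell in BALB/c and rose in DBA. Its signal was 222.2, 289.2, 448.7 and 305.7 on treated and 621.6, 1038 and 870.7 on control BALB/c arrays, against 2035, 887.6 and 1620 on treated and 521.9, 742.4 and 662.2 on control DBA arrays. The difference was −2.50 ± 0.40 (adjusted p = 0.024), and the second probe set of Ccn3 gave −2.59 ± 0.43. Treated BALB/c arrays lay below all others, and treated DBA arrays lay above the DBA controls.

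The remaining 3 genes that fell in BALB/c and rose in DBA were P2rx1, a cation channel gated by ATP, at −1.20 ± 0.19, the terminal uridylyltransferase gene Tut1 at −1.39 ± 0.24, and A530020G20Rik at −1.89 ± 0.30, whose 2 other probe sets gave −1.74 and −1.66. For each of the 3, treated and control arrays did not overlap in either strain. Exoc3l2, named for its likeness to an exocyst subunit, fell in BALB/c (−1.11 ± 0.18) and was not called in DBA (0.33 ± 0.19, adjusted p = 0.17), for a difference of −1.44 ± 0.27.

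Best1, a chloride channel opened by calcium, had 7.7, 10.1, 4.4 and 12.2 on treated and 7, 10.9 and 8.6 on control BALB/c arrays, against 334.4, 615.5 and 420.2 on treated and 19.4, 55.2 and 31.5 on control DBA arrays. The 7 BALB/c signals lay at the dim end of the scale with or without pristane, and the treated DBA arrays stood above every other array. The difference was −3.01 ± 0.38 (adjusted p = 0.008), from responses of −0.01 ± 0.26 in BALB/c and 3.00 ± 0.28 in DBA. Best1 was above the filter level of 103.7 on the 3 treated DBA arrays alone, so it entered the test only through the group where it is high, and its p is not read as support.

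Kiz, which encodes the centrosomal protein kizuna, had 618.6, 561.5, 756.8 and 681.6 on treated and 908.2, 777.1 and 795.3 on control BALB/c arrays, against 2615, 5046 and 3442 on treated and 1148, 1047 and 915.3 on control DBA arrays. The treated DBA arrays of Kiz stood above all others, and the difference was −2.10 ± 0.26 (adjusted p = 0.008). Per2, a repressor of the circadian clock, had 93.1, 83.1, 186 and 109.2 on treated and 127.1, 145 and 184.9 on control BALB/c arrays, against 149, 184.1 and 170.7 on treated and 32.7, 34.9 and 51.7 on control DBA arrays. In Per2 the DBA controls were thus the group that stood apart, and the difference was −1.93 ± 0.33 (adjusted p = 0.032), while its other probe set gave −0.44 ± 0.46. The hour at which tissue was taken is not given in the labels, and of the 15 clock genes tested Per2 was the 1 called, with a list median of −0.13.

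The next 6 genes rose in DBA without a call in BALB/c. Lum, the collagen-binding proteoglycan lumican, had 7287, 7920, 7934 and 8038 on treated and 9260, 8225 and 8452 on control BALB/c arrays, against 8634, 11710 and 9700 on treated and 5622, 5971 and 6302 on control DBA arrays, with a difference of −0.88 ± 0.14 (adjusted p = 0.024). Prrx1, a homeobox factor of mesenchymal cells, stood at −1.16 ± 0.18, and its 4 other probe sets gave −1.53 to −1.21. Amhr2, the receptor of anti-Müllerian hormone, stood at −1.22 ± 0.22, and its other probe set gave −1.93 ± 0.58. The sialyltransferase genes St3gal1 and St3gal4 stood at −0.99 ± 0.18 and −0.98 ± 0.17, and the microtubule-binding protein gene Nav1 at −0.69 ± 0.11. The other probe set of St3gal1 gave −0.63 ± 0.35 and the 3 others of Nav1 gave −0.90 to −0.34, none of them called.

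Another 6 genes rose in both strains and rose more in DBA. Clu, the secreted chaperone clusterin, had 11710, 9303, 9568 and 10930 on treated and 6079, 6803 and 5579 on control BALB/c arrays, against 11690, 16600 and 15030 on treated and 3658, 3498 and 3012 on control DBA arrays. Its difference was −1.32 ± 0.19 (adjusted p = 0.022), and its 3 other probe sets gave −1.43 to −1.03. Myrf, a membrane-bound transcription factor known for its part in myelination, had 2770, 2345, 2794 and 2761 on treated and 1454, 1782 and 1587 on control BALB/c arrays, against 2956, 2799 and 2462 on treated and 275.2, 512.7 and 555.1 on control DBA arrays. For Myrf the treated arrays of the strains overlapped and the controls did not, and the difference was −1.88 ± 0.27 (adjusted p = 0.022).

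Gatm, which makes the precursor of creatine, had 1694, 1342, 1760 and 1682 on treated and 644.6, 697.6 and 548.8 on control BALB/c arrays, against 4111, 2852 and 3839 on treated and 553.2, 542.4 and 556.7 on control DBA arrays. Here the controls of the strains overlapped and the treated DBA arrays were the high group, and the difference was −1.31 ± 0.20 (adjusted p = 0.024). Rab7b, a small GTPase of late endosomes, stood at −1.21 ± 0.20. Spon1, the matrix protein spondin, stood at −2.65 ± 0.49 (adjusted p = 0.049), with 1 BALB/c control array at 2686 beside 976.4 and 871.3 on the other 2, and its other probe sets gave −1.25 ± 0.45 and −0.07 ± 0.53. Over all called genes with more than 1 kept probe set, the 31 other probe sets had the sign of the brightest one in 31 cases and were called in 5.

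**Figure D3:**
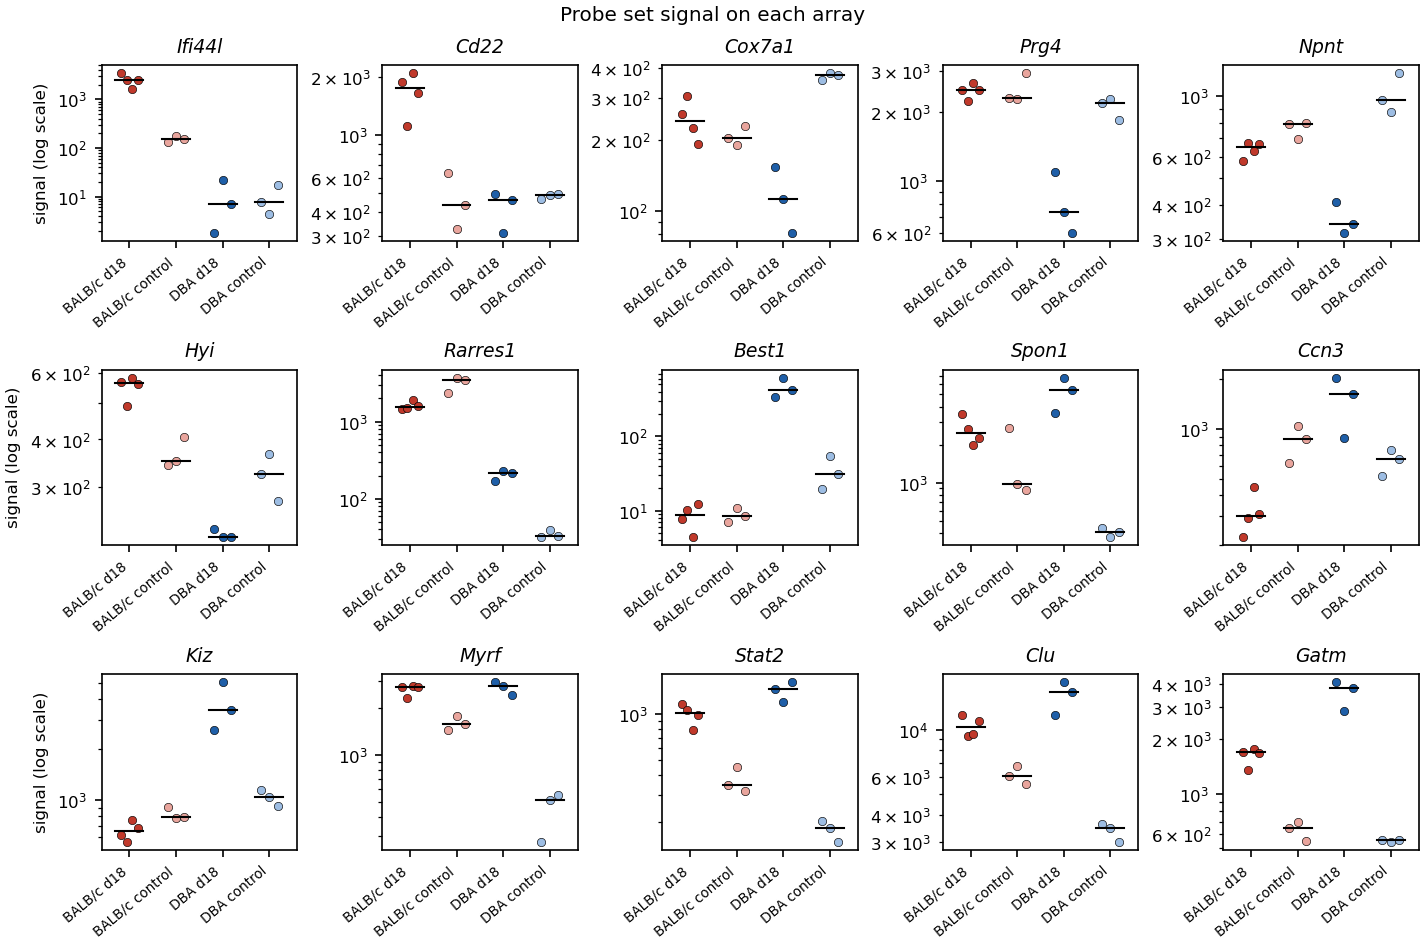
Signal (log axis) of the brightest probe set of 15 called genes on each of the 13 arrays, with groups in the order treated BALB/c, control BALB/c, treated DBA, control DBA. Points are arrays and bars are group medians. Ifi44l, Cd22 and Hyi are high on the 4 treated BALB/c arrays, whereas Best1, Kiz and Gatm are high on the 3 treated DBA arrays.

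Stat2, the last of these 6, belongs to the interferon pathway. Type I interferon acts through a receptor that activates Stat2, which enters the complex ISGF3 with Irf9, and this complex switches on interferon-stimulated genes through a short promoter element. Stat2 had 1163, 1064, 786.4 and 982.1 on treated and 348.2, 452.7 and 317.4 on control BALB/c arrays, against 1457, 1195 and 1617 on treated and 203.2, 180.5 and 147.6 on control DBA arrays. The treated DBA arrays all lay above the treated BALB/c arrays and the DBA controls all lay below the BALB/c controls. The difference was −1.47 ± 0.24 (adjusted p = 0.024), and the second probe set of Stat2 gave −0.70 ± 0.30.

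Of 33 type I interferon-stimulated genes tested, 32 rose and 1 fell in BALB/c and 33 rose in DBA, with median responses of 2.35 and 3.08. The difference was negative in 32 of the 33, with a median of −0.73 against 0.02 over all genes, and 1 of them, Stat2, was called, beside 16 with an unadjusted p under 0.05. The call for Stat2 is lost with the acinar marker level as a covariate (−1.43, adjusted p = 0.062), within a range of 0.0034 to 0.51 over the alternatives. With that covariate the median difference of the list was −0.62, with 31 of 33 negative. Leaving out the 3 arrays high in intestinal markers gave −0.55, also with 31 of 33 negative. Without the 5 BALB/c arrays high in acinar markers, which leaves 1 treated and 1 control BALB/c array, it was −0.12, with 24 of 33 negative. Differences in the list ran from −1.47 to 0.23, whereas Ifi44l, which the list does not hold, was at 3.79. Of the Ifi200 family, DNA sensors of the interferon response, 3 members were tested and 0 were called. Ifi202b was at −1.10 ± 0.22 (adjusted p = 0.068), Ifi204 at −1.58 ± 0.42 (adjusted p = 0.11) and Mndal at −0.06 ± 0.24 (adjusted p = 0.91). Mndal had 8348, 6999, 6251 and 6534 on treated and 3025, 3167 and 2844 on control BALB/c arrays, against 127.4, 159.5 and 134 on treated and 62.6, 47.7 and 24.9 on control DBA arrays, so its levels did not overlap between the strains while its difference of responses was near 0. The DBA controls were dim beside the 24.9 added before log2, which understates the DBA response, so the near 0 difference depends on that offset.

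The promoters of 3 interferon-induced genes are given because 2 of them, Ifi44l and Stat2, were called with opposite signs, and Ifit1, an inhibitor of viral translation, was added after its values were seen as a gene that rose in both strains (3.18 in BALB/c and 4.28 in DBA). Each is the 250 bases before the start of the gene on its own strand, 5′ to 3′, from RefSeq on the assembly GRCm38.p6, which is the sequence of neither strain. Capitals mark matches, on either strand, to the core of the element that ISGF3 binds, read here as GAAA, any 2 bases and GAAA again. The regions are chr3:151762892-151763141 on the minus strand for Ifi44l, chr10:128270248-128270497 on the plus strand for Stat2 and chr19:34640639-34640888 on the plus strand for Ifit1.
Ifi44l: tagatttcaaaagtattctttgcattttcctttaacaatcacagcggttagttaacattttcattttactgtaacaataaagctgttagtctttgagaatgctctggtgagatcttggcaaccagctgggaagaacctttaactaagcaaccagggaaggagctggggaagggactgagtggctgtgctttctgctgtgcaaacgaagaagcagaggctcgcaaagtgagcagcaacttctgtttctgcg
Stat2: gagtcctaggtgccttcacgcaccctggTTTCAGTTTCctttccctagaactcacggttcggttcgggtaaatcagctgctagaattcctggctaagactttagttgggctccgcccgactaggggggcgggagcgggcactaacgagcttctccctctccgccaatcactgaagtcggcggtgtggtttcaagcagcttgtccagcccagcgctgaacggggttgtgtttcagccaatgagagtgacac
Ifit1: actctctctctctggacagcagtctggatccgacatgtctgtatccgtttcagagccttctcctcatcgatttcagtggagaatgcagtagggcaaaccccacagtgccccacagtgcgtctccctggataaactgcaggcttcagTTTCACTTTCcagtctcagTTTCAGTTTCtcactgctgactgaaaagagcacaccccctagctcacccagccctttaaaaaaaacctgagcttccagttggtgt
Both strands were searched. The window of Ifi44l held 0 matches, that of Stat2 held 1 and that of Ifit1 held 2, all on the strand opposite the gene. Of all 32851 promoter windows of this length, 978 (2.98%) held a match. Counted by gene rather than by window, 2 of the 20 called genes with a promoter in the table held one. Among the type I interferon-stimulated genes tested 10 of 24 did (41.7%), also by gene.

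The same difference of responses was measured at day 3 on 12 other arrays, with 3 per group and controls of their own. There 409 of 12102 genes were called (3.38%), 222 positive (1.83%) and 187 negative (1.55%). All 32 genes called at day 18 were tested at day 3, where 25 had the same sign, 7 had the opposite sign and 7 were called, each with the same sign. Over the 11950 genes tested at both times, 53% had the same sign. The 7 genes called at both times were Ifi44l, Rarres1, Best1, Clu, A530020G20Rik, Kiz and Lum. At day 3 too, Best1 passed the filter only through the treated DBA arrays (266.7, 215.4 and 249.4). Its day 3 call is therefore not read as support either. The probe set of Ifi44l used at day 3 passed only with treated BALB/c arrays, as BALB/c control replicate 1 read 101.5. The day 3 call of Ifi44l is likewise not read as support.

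For Ifi44l, through its other probe set, the day 3 signals were 1340, 837.7 and 2424 on treated and 101.5, 105.9 and 110.8 on control BALB/c arrays, against 18.8, 4 and 28 on treated and 33.7, 2.9 and 10.8 on control DBA arrays, a difference of 3.38 ± 0.50 (adjusted p = 0.0054). For Rarres1 they were 1155, 1355 and 1148 on treated and 2632, 3241 and 3610 on control BALB/c arrays, against 83.7, 133.6 and 107.7 on treated and 45.9, 44.5 and 56.6 on control DBA arrays, a difference of −2.19 ± 0.22 (adjusted p = 0.00045). Rarres1 thus had at day 3 the order of groups it had at day 18. For Ifi44l the treated BALB/c arrays stood highest on both days, and the DBA groups overlapped on both. Best1 stood at −2.18 ± 0.37, Clu at −0.94 ± 0.19, A530020G20Rik at −0.86 ± 0.21, Kiz at −0.74 ± 0.16 and Lum at −0.58 ± 0.14. Cd22, by contrast, was at 0.06 ± 0.32 (adjusted p = 0.94).

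**Figure D4:**
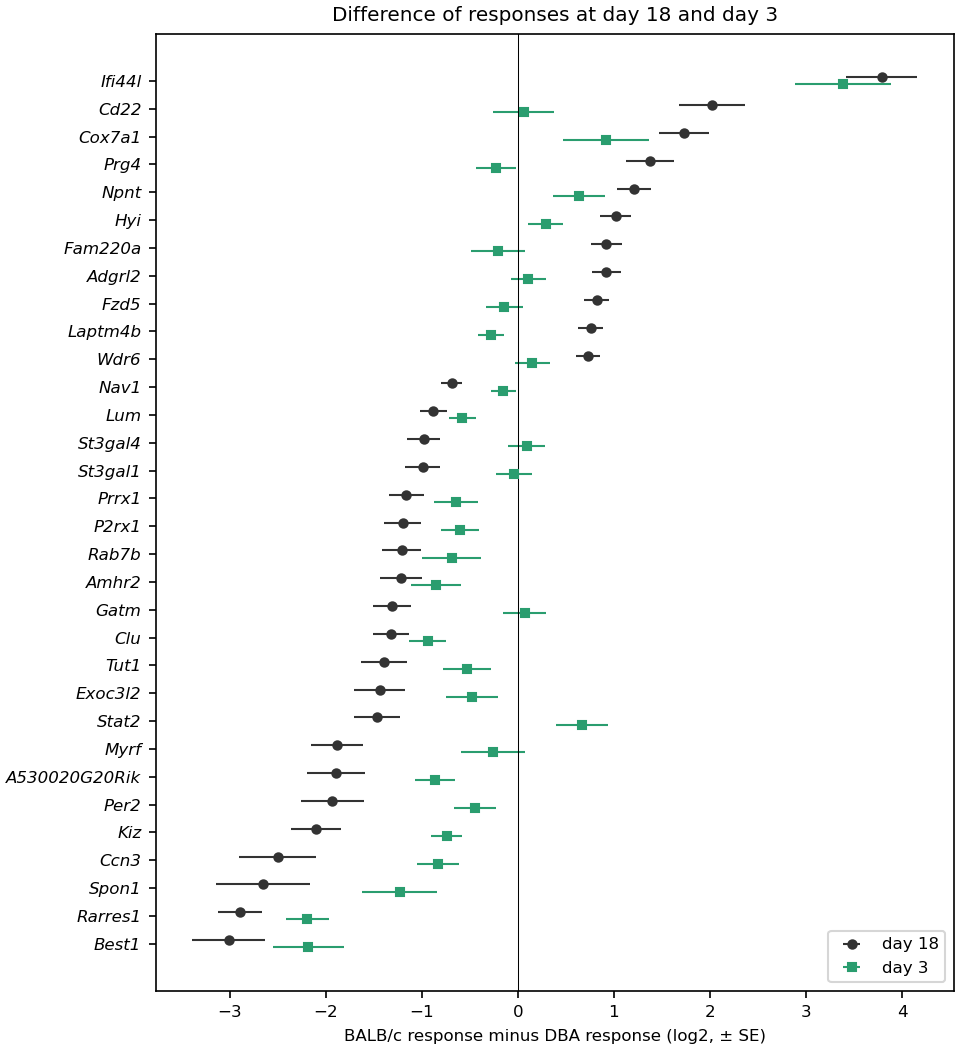
Difference of responses (BALB/c minus DBA, log2) of the 32 called genes at day 18 (circles) and at day 3 (squares), with bars of 1 SE. The genes are ordered by their day 18 value, which chose them, and the day 3 values come from 12 other arrays. Ifi44l, Rarres1 and Best1 lie beyond 2 log2 units on both days. However, Best1 passed the filter on both only through treated DBA arrays, and Ifi44l only through BALB/c arrays.

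The interferon list stood differently at the 2 times. At day 3 the difference was positive in 32 of the 33 type I interferon-stimulated genes and called in 25, each positive, with a median of 1.59, whereas at day 18 it was negative in 32. Their median response at day 3 was 2.21 in BALB/c, where 31 rose, and 0.58 in DBA, where 16 rose, beside 47.6% of all genes called in BALB/c (23.5% risen, 24.1% fallen) and 43.3% in DBA (23% risen, 20.4% fallen). Stat2 was at 0.67 ± 0.27 at day 3 (adjusted p = 0.20), the opposite sign to day 18. The cell proliferation list, whose members run the cell cycle, had a median difference of 1.01 at day 3 with 13 of 27 called positive, and of −0.21 at day 18 with 0 called. The change of these differences between the 2 times was not tested, and the sets of arrays differ in their codes.

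The other gene lists held few called differences. Their counts, here and below, stand beside the shares over all genes. In BALB/c 22% rose and 24% fell, in DBA 25.7% rose and 29% fell, and 16.4% of differences had an unadjusted p under 0.05. Most inflammatory genes rose in both strains. Of 22 inflammatory chemokine and receptor genes 20 rose and 1 fell in BALB/c and 20 rose and 0 fell in DBA. Of 12 cytokine genes tested, from 22 listed, 12 rose in BALB/c and 11 in DBA. A gene dim on all controls is tested only if treated arrays pass the filter, which favours genes that rose. How far this shaped the counts was not tested. The 20 monocyte and macrophage genes rose in both (median 1.97 in BALB/c and 2.44 in DBA), as did 26 of 27 proliferation genes in each strain, and the plasma cell list rose in 11 of 15 members in BALB/c and 12 of 15 in DBA (median 1.59 and 1.65). In these 3 lists limma called 0 differences, with 3, 0 and 4 at an unadjusted p under 0.05. Without the 5 BALB/c arrays high in acinar markers the median difference of the monocyte and macrophage list was 0.14 (−0.26 on 13 arrays) and that of the proliferation list 0.57 (−0.21 on 13 arrays). With the acinar marker level as a covariate they were −0.26 and −0.15. In bulk tissue, more cells of a type and more RNA per cell cannot be told apart.

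Genes of fat fell in both strains. Of 14 adipocyte genes 11 fell in BALB/c and 14 in DBA, with medians of −1.38 and −1.96. All 14 differences were positive (median 0.62) and 0 were called or had an unadjusted p under 0.05. Of 20 lipid synthesis genes 11 fell in BALB/c and 19 in DBA, with a median difference of 0.63 and 0 called. Without the 5 BALB/c arrays high in acinar markers, which leaves replicate 1 of each BALB/c group, these median differences were −0.09 and −0.58. With the acinar marker level as a covariate they were 0.38 and 0.30. Leaving out the 3 arrays high in intestinal markers gave 0.24 and 0.14. Adipocyte markers also ran lower on DBA day 18 replicate 2 (10.51) than on the other 2 treated DBA arrays (12.22 and 11.64), and on BALB/c day 18 replicate 1 (11.26) than on the other 3 (12.14 to 12.68). In the list of thermogenic fat genes Cox7a1 was the 1 of 8 called.

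Smooth muscle genes, which encode the contractile apparatus, fell in 10 of 10 members in DBA (median −0.78) and in 0 of 10 in BALB/c (median −0.12). The difference was positive in all 10, 9 had an unadjusted p under 0.05 and 0 were called, so a difference between the strains is not shown by this test. Without the 5 BALB/c arrays high in acinar markers the median difference was 0.27 (0.66 on 13 arrays), and with the acinar marker level as a covariate 0.72. Cnn1, calponin of smooth muscle, had 8641, 8245, 7615 and 9253 on treated and 12120, 6586 and 8998 on control BALB/c arrays, against 5717, 5155 and 3931 on treated and 6921, 10810 and 13350 on control DBA arrays, a difference of 0.94 ± 0.33 (adjusted p = 0.19). The BALB/c groups of Cnn1 overlapped and the DBA groups did not.

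Mast cell genes were among the lists with a negative median difference (−0.70). In BALB/c 3 of 10 members rose and 1 fell, and in DBA 8 rose and 2 fell. Of the differences 0 were called and 2 had an unadjusted p under 0.05, beside 16.4% over all genes. Hdc, the enzyme that makes histamine, had 1835, 1186, 1109 and 1585 on treated and 154.1, 153.8 and 85.2 on control BALB/c arrays, against 1068, 2458 and 2211 on treated and 36.9, 21.3 and 18.3 on control DBA arrays. It rose in both strains, and the difference was −1.97 ± 0.42 (adjusted p = 0.068). Mast cell and neutrophil markers were highest on DBA day 18 replicate 2, at 10.63 and 12.41, against 8.56 to 9.63 and 9.57 to 10.94 on the other treated arrays of either strain, and the part of that array in the mast cell values was not tested.

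Genes tied to plasmacytomas held 0 called differences, with 2 of the 17 tested at an unadjusted p under 0.05, beside 16.4% over all genes. Il6, the cytokine on which early plasmacytomas depend, had 782, 746.9, 583.3 and 1059 on treated and 3.3, 21.7 and 10 on control BALB/c arrays, against 370.5, 902.9 and 961.4 on treated and 17.7, 1.7 and 27.7 on control DBA arrays. It rose in both strains, and the difference was 0.29 (95% interval −0.76 to 1.35, adjusted p = 0.80). Only treated arrays of Il6 were above the filter level of 103.7, so its rise is not read as support. Myc, the oncogene that plasmacytomas activate by translocation, rose in both strains, with a difference of −0.63 (95% interval −1.08 to −0.19, adjusted p = 0.17). Among the heavy chains, Igha stood at 1.89 ± 0.65 (adjusted p = 0.18) and Ighm at −1.13 ± 0.37 (adjusted p = 0.17).

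**Figure D5:**
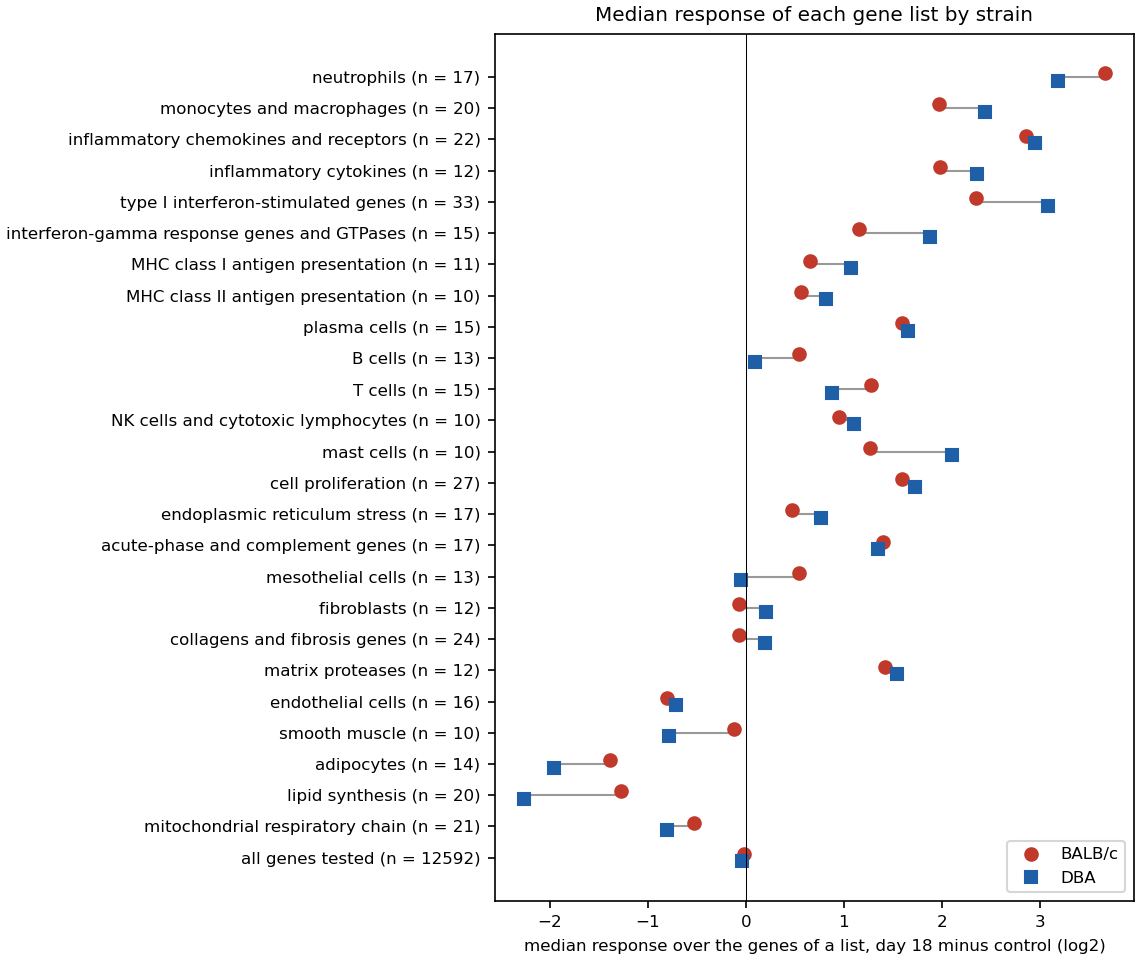
Median response (treated minus control, log2) of 25 gene lists and of all genes tested, in BALB/c (circles) and DBA (squares), with the number of genes tested beside each list. A line joins the 2 strains. Both strains lie on the same side of 0 for inflammatory and fat lists, and the smooth muscle list lies at −0.12 in BALB/c and −0.78 in DBA.

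The called genes differed in how often their call held over alternative settings. Rarres1 was called in 28 of 29 alternatives, Ifi44l in 27 of 28, Kiz in 26 of 29, Myrf in 25 of 29, Clu in 23 of 29 and Best1 in 22 of 25, and these 6 were among the 9 called with the acinar marker level as a covariate. For Best1 the filter removes it whenever a treated DBA array is left out. Those 3 settings are missing, so the count for Best1 says little about stability. Ifi44l was above the filter level on BALB/c arrays alone. The filter removes it when the BALB/c arrays high in acinar markers are left out. The count for Ifi44l lacks that setting, so its difference was not tested without those arrays. At the other end, Exoc3l2 was called in 6 of 28 alternatives, and Wdr6 in 7 of 29. No called gene changed sign in any alternative in which it was tested.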

How the data were processed

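Total RNA of mesentery was extracted with TRIzol and an RNeasy cleanup, amplified and hybridised to 1-colour Affymetrix arrays, per the labels' protocols. The values are intensities, 1 per probe set and array, that the authors deposited after processing with GCOS and MAS5, per the submitters' processing notes; versions are not given in the sources used here. Their 2% trimmed mean is 500 on each array, so a change of total RNA is not seen. No depth applies to arrays, and their number limits the precision.

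Groups follow the labels, and replicate numbers in accession order only name arrays. Of 45101 probe sets 34958 had 1 symbol, 932 several and 9211 none in the platform table, and those with several or none were left out. A probe set was kept where its signal was above 103.7, the median of all values, on at least 3 arrays, and the brightest kept one stood for a gene (5804 genes had more than 1). Values were log2(signal + 24.9), which understates changes of dim genes. A linear model with 1 mean per group was fitted to 13 arrays (9 residual degrees of freedom) with limma 3.58.1 in R 4.3.3, with moderated variances and a trend. P-values are two-sided, adjusted by the Benjamini-Hochberg method over all genes tested. Errors are SE unless given as SD. The code was tested on simulated data. Alternatives changed the offset, filter, scaling, variance model, probe set rule and arrays used.

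The members and the gene lists were chosen with earlier results of these data known. Named genes were the 15 called genes with the largest differences in each direction, clone names skipped, and the 5 largest in each class by called responses (BALB/c only, DBA only, opposite signs). Each list added up to 4 called members with the largest differences or, with none called, up to 2 members, and the Ifi200 family, Myc, Il6 and Cdkn2a (not tested) were always included. Prrx1, St3gal1, St3gal4, Nav1, A530020G20Rik and Ifit1 were named after their values were seen. Of 688 listed symbols 612 were on the array and 562 were tested.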

Additional observations from a re-analysis of the deposited data

Results flagged for a closer look

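The test of the difference itself called 32 genes whose responses to pristane at day 18 differed between the 2 strains. That count depended on the arrays and settings used. It includes Best1 and Ifi44l, whose p-values are not read as support. The log2 difference, BALB/c response minus DBA response, was 3.79 for Ifi44l, 2.02 for Cd22, 1.73 for Cox7a1, 1.38 for Prg4, 1.21 for Npnt, 1.02 for Hyi, 0.92 for Adgrl2, 0.92 for Fam220a, 0.82 for Fzd5, 0.76 for Laptm4b and 0.73 for Wdr6. It was −3.01 for Best1, −2.89 for Rarres1, −2.65 for Spon1, −2.50 for Ccn3, −2.10 for Kiz, −1.93 for Per2, −1.89 for A530020G20Rik, −1.88 for Myrf, −1.47 for Stat2, −1.44 for Exoc3l2, −1.39 for Tut1, −1.32 for Clu, −1.31 for Gatm, −1.22 for Amhr2, −1.21 for Rab7b, −1.20 for P2rx1, −1.16 for Prrx1, −0.99 for St3gal1, −0.98 for St3gal4, −0.88 for Lum and −0.69 for Nav1.

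Among the 4 treated BALB/c arrays, 7 of 109 genes examined had 1 array far from the other 3. Chance singles out an array in about 1 in 20 such groups. The signals were 2345 for Myrf and 1342 for Gatm on replicate 2, 7287 for Lum and 55.8 for Reg3b on replicate 1, 6939 for Alas2 and 451.3 for Fcer2a on replicate 3, and 331 for Rps27 on replicate 4. The other 3 groups hold 3 arrays each and were not examined in this way. The BALB/c control array left out of the comparison had a mean log2 signal of 16.81 over 14 acinar markers, against 6.97 to 10.5 on the 3 BALB/c controls used.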

How the results depend on the processing

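The count of 32 genes called at day 18 was within 1.5 times of its value in 10 of 17 alternatives other than single arrays left out. The 7 others gave 9 genes with an ordinary linear model, 611 with array weights, 270 with 31 arrays in 1 fit, 6 with the pancreatic BALB/c control kept, 9 with the acinar marker level as a covariate, 0 without the 5 arrays high in acinar markers and 3 without the 3 arrays high in intestinal markers. The last 2 settings were chosen after seeing the data, and both leave fewer arrays. With single arrays left out the count ran from 3 to 234. For the BALB/c response (5794 genes called) the count was 9092 with probe sets taken singly, which tests more features, and 2874 without the 5 arrays high in acinar markers, and it ran from 4904 to 5951 with single arrays left out. For the DBA response (6896) it was 10690 with probe sets taken singly, and 6046 to 6891 with single arrays left out. At day 3 the count of 409 was 72 with an ordinary linear model, 919 with array weights and 673 with probe sets taken singly. With single arrays left out at day 3 it ran from 152 to 507, and was 152 and 231 without BALB/c replicates 1 and 2, 206 and 262 without BALB/c control replicates 2 and 3, 172 and 176 without DBA replicates 2 and 3, and 190 without DBA control replicate 2.

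The differences of called genes stayed past the threshold in 515 cases and lost it in 402, with no change of sign. Among the other gene results, 1 sign turned where a fit had called the gene. It was the BALB/c response of Manf, 0.53 on 13 arrays and −0.02 with the pancreatic control kept. In 78 further cases a sign turned with no call in either fit. Except where the number of arrays or features changed, the cause was not tested. No paired analysis was possible because the titles give no replicate numbers shared between groups. Limits are the 3 or 4 arrays per group, the pancreatic and intestinal RNA on some of them, the strain lying in 1 code set each at day 18, and dim signals, which bound what could be measured for Ifi44l in DBA and Best1 in BALB/c.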

Other observations

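Genes of the mitochondrial respiratory chain fell in both strains, 20 of 21 in BALB/c (median −0.53) and 21 of 21 in DBA (median −0.80). Their difference was positive in 20 of 21, with a median of 0.30, 13 at an unadjusted p under 0.05 and 0 called in limma. The median was 0.16 with 5 of 21 negative without the 5 BALB/c arrays high in acinar markers. With the acinar marker level as a covariate it was 0.22, with 1 of 21 negative. Genes of the endoplasmic reticulum stress response, which support secretion, rose in 11 of 17 in BALB/c (median 0.47) and 14 of 17 in DBA (median 0.77). Their difference was negative in 15 of 17, with a median of −0.49, 9 at an unadjusted p under 0.05 and 0 called. Without the 5 BALB/c arrays high in acinar markers the median was −0.33, with 13 of 17 negative. With the acinar marker level as a covariate it was −0.46, with 15 of 17 negative. Manf, a secreted protein of that response, stood at −0.98 ± 0.19 (adjusted p = 0.061).

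Genes of class I antigen presentation rose in 8 of 11 in BALB/c (median 0.66) and 10 of 11 in DBA (median 1.07), with all 11 differences negative (median −0.41), 6 at an unadjusted p under 0.05 and 0 called in limma. Without the 5 BALB/c arrays high in acinar markers the median was −0.17, with 8 of 11 negative. With the acinar marker level as a covariate it was −0.41, with 11 of 11 negative. Of 16 endothelial genes 11 fell and 4 rose in each strain, with medians of −0.80 in BALB/c and −0.71 in DBA and a median difference of −0.03. Among mesothelial genes, which line the peritoneum, 8 of 13 rose and 2 fell in BALB/c and 5 rose and 2 fell in DBA. The list's differences had a median of −0.03 and a range of −0.61 to 1.16, with 7 of 13 negative, 0 called and 3 at an unadjusted p under 0.05. The keratin gene Krt8, the highest of them, rose in BALB/c (0.98 ± 0.18) and was at −0.18 ± 0.19 in DBA. Its difference was 1.16 ± 0.26 (adjusted p = 0.081). Without the 5 BALB/c arrays high in acinar markers the median difference of the mesothelial list was 0.05, with 6 of 13 negative.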
